A study of Mus musculus with 4 samples.

Results

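The 10 genes described here are a set of NRF2-linked glutathione and thioredoxin genes, and each was found once among the 51826 gene models of the table by its symbol: the transcription factor gene Nfe2l2, which encodes NRF2, and the antioxidant genes Nqo1, Gclm, Gclc, Txnrd1, Srxn1, Gsr, Slc7a11, Abcc1 and Prdx1. They were measured by mRNA sequencing in primary microglia, the macrophages of the brain, that had been grown for 2 weeks in mixed culture from newborn C57BL/6 mouse brains and shaken loose. The 2 mock libraries came from untreated cells and the 2 LysoPS libraries from cells given lysophosphatidylserine for 4 h, a phospholipid with a single fatty acid chain that activates the receptor GPR34. The descriptions of the mock and LysoPS libraries all begin with WT, the usual short form of wild type. The dose of LysoPS and any pooling of brains were not stated in the sources used here. The treatment text speaks of 1 treated replicate, whereas the titles name 2 LysoPS samples; the titles were followed.

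The libraries held between 30001098 and 45193959 counts. Levels are given as CPM, read counts relative to the library's total after TMM scaling (a correction for composition), or as the authors' TPM, a share of transcripts corrected for their length, where genes are compared with each other. A gene was called changed when its adjusted p fell under 0.05 in edgeR's quasi-likelihood test with Benjamini-Hochberg adjustment over all 19057 genes tested. Whether replicates came from separate cultures was not stated, so the p-values measure the spread between these samples, which may be technical. RNA of other brain cells was present: the astrocyte marker Gfap stood at 5970 and 5683 CPM in mock, above the macrophage gene Lyz2 at 2929 and 2700 CPM. In bulk RNA, fewer cells of a type and less RNA per cell cannot be told apart.

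NRF2 is held low in resting cells by KEAP1, an adaptor that presents it for degradation. Oxidants and electrophiles modify KEAP1, NRF2 then builds up and binds, with a small MAF partner, to the antioxidant response element of its targets, while BACH1 occupies the same elements as a repressor. Its targets feed a pair of thiol systems. In the first, SLC7A11 imports cystine, and GCLC and GCLM form the ligase for the first step of glutathione synthesis. GSR reduces oxidised glutathione with NADPH, and ABCC1 exports glutathione and its conjugates. In the second, TXNRD1 reduces thioredoxin, PRDX1 is a peroxidase that thioredoxin regenerates, and SRXN1 repairs peroxiredoxin that has been over-oxidised. NQO1 reduces quinones and is widely used as a readout of NRF2 activity.

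Promoter windows from RefSeq (GRCm38.p6, the build of the deposited table), from 250 bases before to 50 after an annotated start, were found for 7 of the 10 genes, in 9 windows, while Gclc, Gsr and Abcc1 had none. Shown are the windows of 3 genes that rose after LysoPS and of Nqo1, which fell. Capitals mark the core of the antioxidant response element, TGACNNNGC, on either strand.
Prdx1 (chr4:116685349-116685648, plus strand): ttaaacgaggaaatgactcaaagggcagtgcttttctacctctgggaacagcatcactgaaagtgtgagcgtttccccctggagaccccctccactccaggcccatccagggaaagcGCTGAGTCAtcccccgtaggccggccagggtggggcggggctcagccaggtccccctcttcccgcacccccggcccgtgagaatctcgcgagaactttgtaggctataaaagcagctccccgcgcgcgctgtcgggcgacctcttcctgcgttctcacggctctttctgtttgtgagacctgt
Srxn1 (chr2:152105274-152105573, plus strand): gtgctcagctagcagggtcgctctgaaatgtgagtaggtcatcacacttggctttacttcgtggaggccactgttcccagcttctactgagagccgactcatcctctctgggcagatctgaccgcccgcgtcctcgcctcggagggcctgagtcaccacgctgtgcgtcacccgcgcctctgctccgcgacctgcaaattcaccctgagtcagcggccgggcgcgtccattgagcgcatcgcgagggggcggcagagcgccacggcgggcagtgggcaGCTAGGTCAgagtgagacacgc
Txnrd1 (chr10:82858956-82859255, plus strand): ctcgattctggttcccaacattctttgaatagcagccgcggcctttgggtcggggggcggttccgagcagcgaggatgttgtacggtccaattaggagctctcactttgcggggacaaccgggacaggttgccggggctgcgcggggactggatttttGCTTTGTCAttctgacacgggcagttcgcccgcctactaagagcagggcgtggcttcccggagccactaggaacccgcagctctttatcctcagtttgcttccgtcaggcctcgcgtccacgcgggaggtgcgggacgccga
Nqo1 (chr8:107403156-107403455, minus strand): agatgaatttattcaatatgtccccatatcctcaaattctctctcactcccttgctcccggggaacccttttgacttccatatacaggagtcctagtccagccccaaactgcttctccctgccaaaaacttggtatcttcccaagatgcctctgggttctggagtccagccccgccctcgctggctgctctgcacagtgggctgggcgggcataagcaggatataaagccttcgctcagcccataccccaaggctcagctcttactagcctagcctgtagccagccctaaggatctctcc
The core was found in at least 1 window of 5 of these 7 genes, against 14.0% of all 27025 genes with a window and 12.4% of all 32851 windows. The genes were grouped as NRF2-linked, and NRF2 binds this element, so the higher share follows from the choice and carries no test. In Prdx1 the match was TGACTCAGC on the minus strand, 133 bases before the start, and it overlapped the AP-1 motif TGANTCA, searched on both strands as well, which was also found 237 bases before the start. Srxn1 held the core as TGACCTAGC at base 29 after the start and the AP-1 motif at 102 and 45 bases before it, without overlap. At 45 bases before the start the letters ran on as TGAGTCAGC, which the core as searched, with TGAC, did not include. For Txnrd1 the core lay in 1 of its 3 windows, as TGACAAAGC at 92 bases before that start. Nfe2l2 and Gclm, neither of which was called changed, also held the core, as TGACTCCGC and TGACGGTGC, 240 and 134 bases before their starts. The windows of Nqo1 and Slc7a11 held neither motif, which says only that these letters were not in those bases. The AP-1 motif was in the windows of Srxn1 and Prdx1 alone among the members and in 8.97% of all genes. A match is a description of the letters, and no binding was measured.

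The set did not move as a block after LysoPS (see the plot of CPM in each library). Of the 10 genes, all tested, 5 rose, 1 fell and 4 did not pass, against 25.5% of all genes called, 12.8% higher and 12.6% lower. Among the 2772 genes that were at least as abundant as the lowest member, 39.6% were called. The genes that rose were Abcc1, Gsr, Prdx1, Txnrd1 and Srxn1, by 1.73-fold to 3.26-fold in mean CPM. All 5 were called and exceeded 1.5-fold in the fit, and 7.47% of all genes were both called and higher by that much. Nqo1, also called, fell by 42.1% in mean CPM, where 8.25% of all genes were both called and lower by at least 1.5-fold. Nfe2l2 itself and the genes of cystine import and glutathione synthesis, Slc7a11, Gclc and Gclm, did not pass the test. The median log2 fold change was 0.48 over the members and -0.01 over all genes tested. On the authors' TPM, limma on log2(TPM + 1) called the same count of members, 5 higher and 1 lower, against 23.3% of all genes (7.1% higher, 16.2% lower); there the median of all genes sat at -0.14, so directions in TPM are read relative to that. Markers of microglia and macrophages rose in the same libraries, 12 of 19 gene models higher and 2 lower, with a summed level of 5859 to 6412 CPM in mock and 13668 to 15616 CPM after LysoPS, and their part in the rises was not tested. The groups did not overlap for 8 members, 5 with LysoPS above and 3 below, but 67% of all genes did the same (32.5% above, 34.5% below), so a lack of overlap in 2 against 2 libraries says little alone.

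**Figure D1:**
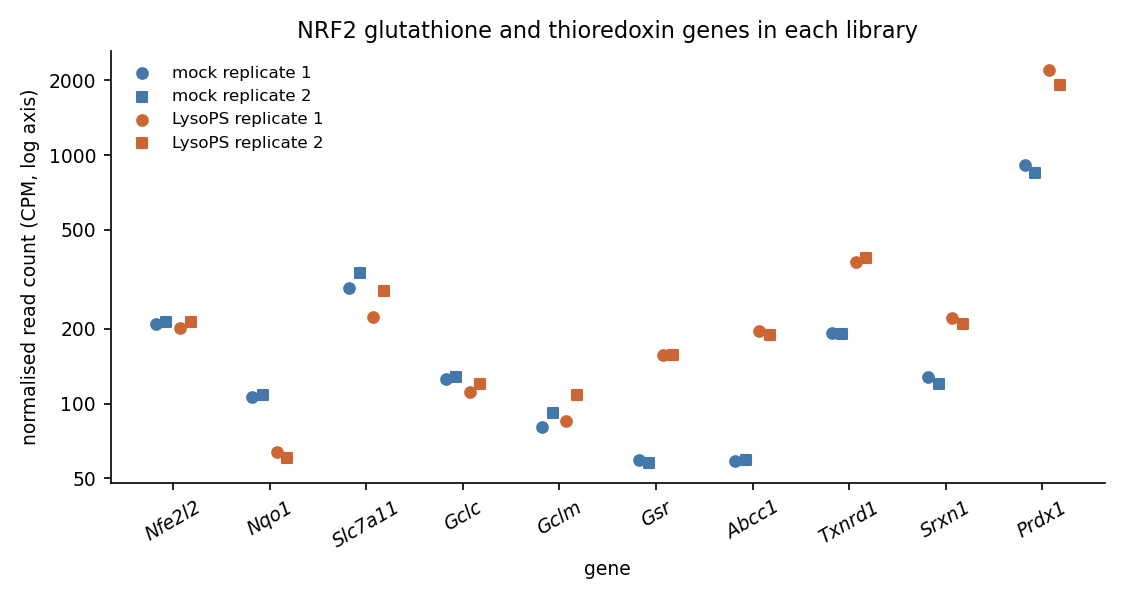
Normalised read count (CPM, log axis) of each gene in the 2 mock libraries (blue) and the 2 LysoPS libraries (orange), with circles for replicate 1 and squares for replicate 2. The LysoPS points of Gsr, Abcc1, Txnrd1, Srxn1 and Prdx1 lie above both mock points and those of Nqo1 below, while Nfe2l2 and Gclm overlap.

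Nfe2l2 (ENSMUSG00000015839, chromosome 2, minus strand, 75675513 to 75704641, GRCm38) was already abundant in mock. It stood at 209 and 214 CPM in mock and at 201 and 213 CPM after LysoPS. The groups overlapped, and the log2 fold change was -0.03 with a 95% interval from -0.20 to 0.13 (adjusted p = 0.750 by edgeR). The interval leaves room for a small change in either direction, and it says nothing of the NRF2 protein, whose amount is set mainly by degradation. Keap1 lay at 40.7 and 42.3 CPM in mock and 41.9 and 39.8 CPM after LysoPS, with overlapping groups (log2 fold change -0.02, adjusted p = 0.853). In TPM, Nfe2l2 exceeded Keap1 by 6.93 and 6.73 times in mock and 6.74 and 7.0 times after LysoPS.

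Slc7a11 (ENSMUSG00000027737, chromosome 3, minus strand, 49892526 to 50443614), the cystine importer that supplies glutathione synthesis, did not pass the test. Its mock libraries held 293 and 335 CPM and its LysoPS libraries 223 and 283 CPM. Both LysoPS values were below both mock values. The log2 fold change was -0.31 with a 95% interval from -0.65 to 0.03 (adjusted p = 0.158). Without LysoPS replicate 2 it was -0.49 and passed (adjusted p = 0.0286), while without LysoPS replicate 1 it was -0.15 (adjusted p = 0.365). A stretch of 585 bases in the longest annotated transcript of Slc7a11 was 92.5% identical to the alpha-tubulin gene Tuba1b, and whether tubulin reads were counted there was not tested. Slc3a2, the heavy chain that carries SLC7A11 to the membrane, stood at 219 and 203 CPM in mock and 252 and 225 CPM after LysoPS (log2 fold change 0.18, adjusted p = 0.190).

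Glutathione synthesis showed no called change in either ligase subunit. The catalytic subunit Gclc (ENSMUSG00000032350, chromosome 9, plus strand, 77754535 to 77794485) had 125 and 128 CPM in mock and 111 and 119 CPM after LysoPS. Its LysoPS values were the lower ones, by a log2 fold change of -0.14 (95% interval -0.32 to 0.05, adjusted p = 0.224). The modifier subunit Gclm (ENSMUSG00000028124, chromosome 3, plus strand, 122245557 to 122270732) had 80.2 and 92.0 CPM in mock and 85.0 and 108 CPM after LysoPS. Here the groups overlapped (log2 fold change 0.17, 95% interval -0.19 to 0.53, adjusted p = 0.431), and without LysoPS replicate 2 the value was -0.016. Gclm overlaps the antisense model Gm17494, which held 355 and 467 counts in mock and 772 and 569 after LysoPS, up to 27.1% of the counts of Gclm. Whether the counting used strand was not given, so reads of this pair may not have been told apart.

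Gsr and Abcc1, which act after synthesis, had the largest fold changes of the 10 genes. Glutathione reductase Gsr (ENSMUSG00000031584, chromosome 8, plus strand, 33652523 to 33698163) went from 59.2 and 57.5 CPM in mock to 157.5 and 157.4 CPM after LysoPS. Replicates of a group differed far less than the groups did. The rise was 2.70-fold in mean CPM, with a log2 fold change of 1.43 ± 0.07 (SE, adjusted p = 0.00048). The exporter Abcc1 (ENSMUSG00000023088, chromosome 16, plus strand, 14361558 to 14475737) went from 58.9 and 59.4 CPM to 196 and 189 CPM. That was 3.26-fold, with a log2 fold change of 1.70 ± 0.07 (SE, adjusted p = 0.000378), the smallest p of the set and rank 59 of 19057 genes by p.

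All 3 members on the thioredoxin side rose, where 12.8% of all genes tested were called higher. Of 18 further thioredoxin and peroxiredoxin genes, 4 rose and 4 fell. Thioredoxin reductase Txnrd1 (ENSMUSG00000020250, chromosome 10, plus strand, 82833951 to 82897712) stood at 193 and 191 CPM in mock and at 373 and 387 CPM after LysoPS, a 1.98-fold rise (log2 fold change 0.99 ± 0.06, SE, adjusted p = 0.000897). Its replicates were nearly equal in mock and close after LysoPS. Sulfiredoxin Srxn1 (ENSMUSG00000032802, chromosome 2, plus strand, 152105516 to 152111376) went from 128 and 120 CPM to 220 and 210 CPM, 1.73-fold (log2 fold change 0.79 ± 0.07, SE, adjusted p = 0.00238). The peroxidase Prdx1 (ENSMUSG00000028691, chromosome 4, plus strand, 116685544 to 116700822) went from 916 and 851 CPM to 2194 and 1916 CPM, 2.33-fold (log2 fold change 1.22 ± 0.09, SE, adjusted p = 0.0014). Prdx1 alone held more CPM than the other 9 members together after LysoPS: their sum was 1631 and 1728 CPM there and 1252 and 1306 CPM in mock.

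The replicates of Prdx1 lay further apart in TPM than in CPM. The transcript length that its deposited counts and FPKM imply was 2522 and 2095 bases in the mock libraries and 1996 and 2550 bases in the LysoPS libraries, a range of 1.28 times, while no other member ranged by more than 1.10 times. In TPM, which takes account of that length, Prdx1 stood at 875 and 1013 in mock and at 2327 and 1675 after LysoPS. The groups still did not overlap, and limma on log2(TPM + 1) gave 1.07 (adjusted p = 0.017). The rise of Prdx1 was 2.12-fold in mean TPM against 2.33-fold in mean CPM, no wider a gap than for Gsr (2.37-fold against 2.70-fold). The 3 near-identical copies of Prdx1 elsewhere in the genome (Gm21399, Gm7204 and Gm15974) together held at most 0.116% of its counts.

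Nqo1 (ENSMUSG00000003849, chromosome 8, minus strand, 107388225 to 107403206) was the single member that fell. It stood at 106 and 108 CPM in mock and at 63.7 and 60.5 CPM after LysoPS. Both LysoPS libraries were well below both mock libraries, with a log2 fold change of -0.79 ± 0.07 (SE, adjusted p = 0.00267). With each library left out in turn the value stayed between -0.83 and -0.75 and passed each time (largest adjusted p = 0.0185). Its fall went with a fall of the astrocyte markers, of which 10 of 12 were lower (summed level 11413 to 12605 CPM in mock, 6194 to 6955 CPM after LysoPS, median log2 fold change -0.60), and their part in it was not tested.

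**Figure D2:**
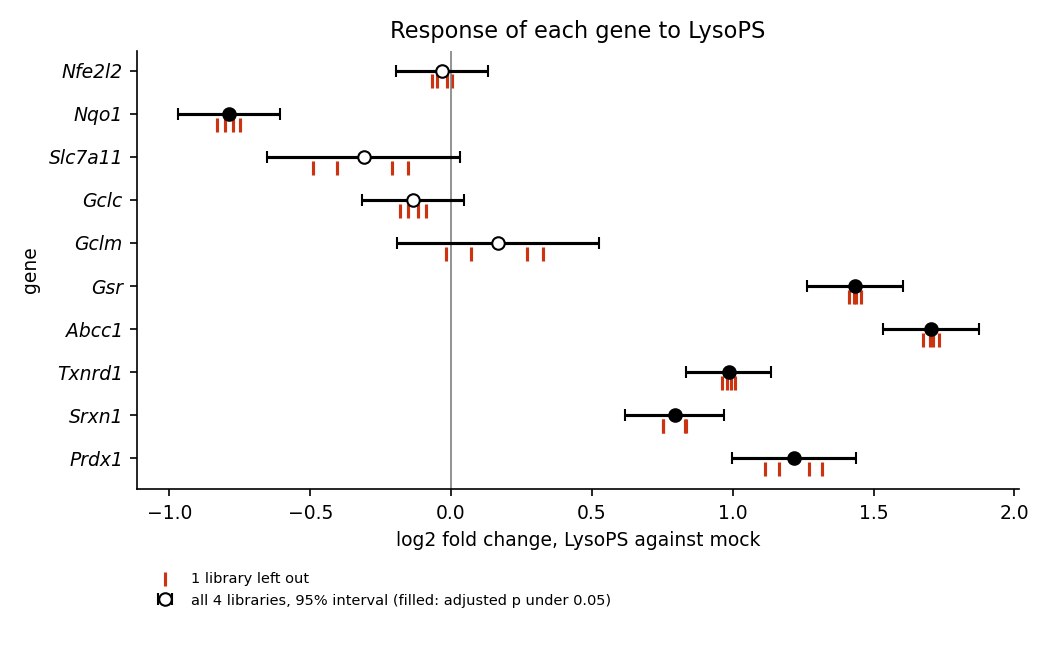
Log2 fold change of each gene, LysoPS against mock, with its 95% interval (filled where the adjusted p was under 0.05) and, as red ticks, the values with each library left out in turn. The ticks of the 6 called genes stay on their side of zero, those of Slc7a11 run from -0.49 to -0.15, and those of Gclm and Nfe2l2 reach both sides.

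Per transcript length the order of the genes changed with treatment. In mock, by mean TPM, it was Prdx1 (944 ± 98.0, SD, n = 2), Nfe2l2 (186 ± 6.45), Nqo1 (150 ± 5.14), Txnrd1 (121 ± 1.41), Srxn1 (101 ± 3.25), Gclc (80.9 ± 2.96), Slc7a11 (74.8 ± 9.21), Gsr (48.0 ± 0.838), Gclm (37.3 ± 2.52) and Abcc1 (21.4 ± 1.27). The libraries of Gclc and Slc7a11 overlapped, and no other pair of neighbours did. After LysoPS the order by TPM was Prdx1, Txnrd1 (218 ± 8.04), Nfe2l2 (162 ± 11.9), Srxn1 (152 ± 1.56), Gsr (114 ± 4.23), Nqo1 (77.0 ± 0.150), Gclc (65.4 ± 5.31), Abcc1 (62.4 ± 0.617), Slc7a11 (53.5 ± 10.3) and Gclm (38.2 ± 6.61). Gclc and Abcc1 overlapped there, and the other neighbours did not. With counts per kb of mean implied length in place of the deposited TPM, Nfe2l2 (153.8 and 170.4) and Srxn1 (153.8 and 153.5) overlapped after LysoPS as well. Nqo1 thus went from rank 3 to rank 6, Gsr from rank 8 to rank 5, and Abcc1 from rank 10 to rank 8.

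Ratios between members within a library do not depend on how libraries are scaled, and they show the same split. The TPM ratio of Gsr to Nqo1 was 0.324 and 0.316 in mock and 1.44 and 1.52 after LysoPS. For Txnrd1 to Nqo1 it was 0.823 and 0.797 in mock and 2.75 and 2.91 after LysoPS. The mRNA of Gsr also gained on that of Gclc, from a ratio of 0.602 and 0.586 to 1.80 and 1.69. Slc7a11 to Abcc1 stood at 3.33 and 3.65 in mock and at 0.746 and 0.967 after LysoPS. Neither Gclc nor Slc7a11 was itself called. The ligase's Gclm to Gclc ratio went from 0.451 and 0.471 to 0.545 and 0.621, a shift of 0.34 on the log2 scale in which the groups did not overlap. These pairs were chosen with the fold changes known and carry no test. With 2 libraries against 2, an exact permutation test of any single ratio could not give a two-sided p below 0.333.

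**Figure D3:**
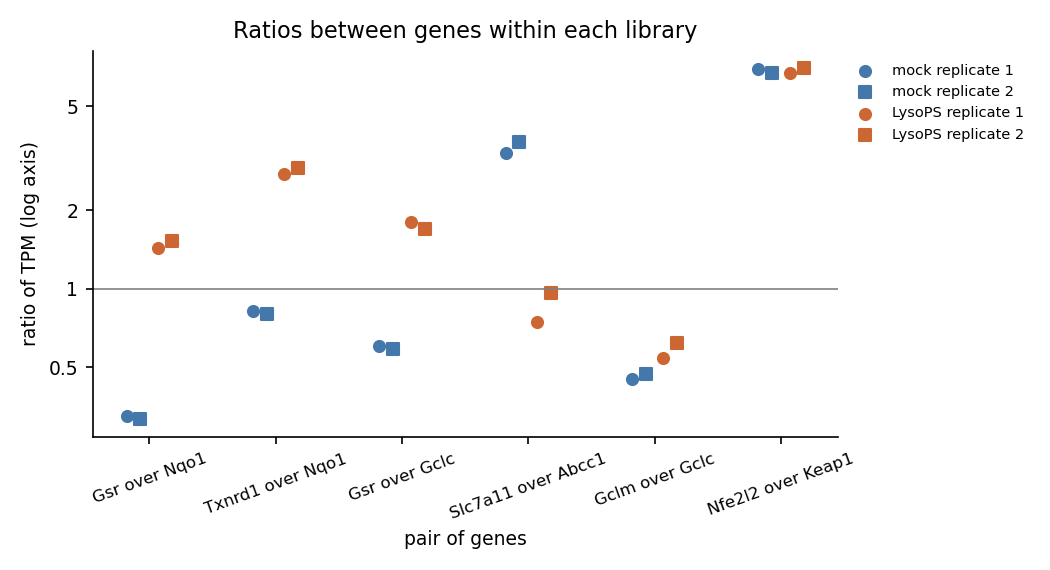
Ratio of TPM (log axis) for 6 pairs of genes in each library, mock in blue and LysoPS in orange. Gsr over Nqo1, Txnrd1 over Nqo1 and Gsr over Gclc cross from below 1 in mock to above 1 after LysoPS, Slc7a11 over Abcc1 crosses the other way, and Nfe2l2 over Keap1 stays between 6.73 and 7.0 in all 4 libraries.

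Around these genes, 120 of 121 listed genes of the wider pathway were tested, of which 37 rose, 17 fell and 66 did not pass (median log2 fold change 0.12). Over all genes tested, 12.8% were called higher and 12.6% lower. Among 15 regulators of NRF2, 5 rose and 1, the ubiquitin ligase subunit gene Btrc, fell (median 0.24). Sqstm1, the autophagy receptor p62 that can sequester KEAP1, went from 365 and 338 CPM in mock to 775 and 721 CPM after LysoPS (log2 fold change 1.09, adjusted p = 0.00115). The small MAF genes Mafk (0.66) and Mafg (0.38) and the NRF2 relative Nfe2l3 (0.92) rose too. The repressor Bach1 had 73.0 and 72.4 CPM in mock and 79.3 and 111 CPM after LysoPS (log2 fold change 0.39, adjusted p = 0.151), and without LysoPS replicate 1 it was 0.60 and passed (adjusted p = 0.00996). Of the 6 calls on this list 3 were made without mock replicate 1 and 1 without mock replicate 2. Mafk and Mafg lost their calls in both cases, and Nfe2l3 without mock replicate 2. No regulator was called lower with any of the 4 libraries left out, so the call of Btrc (log2 fold change -0.33, adjusted p = 0.0327) was lost each time.

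**Figure D4:**
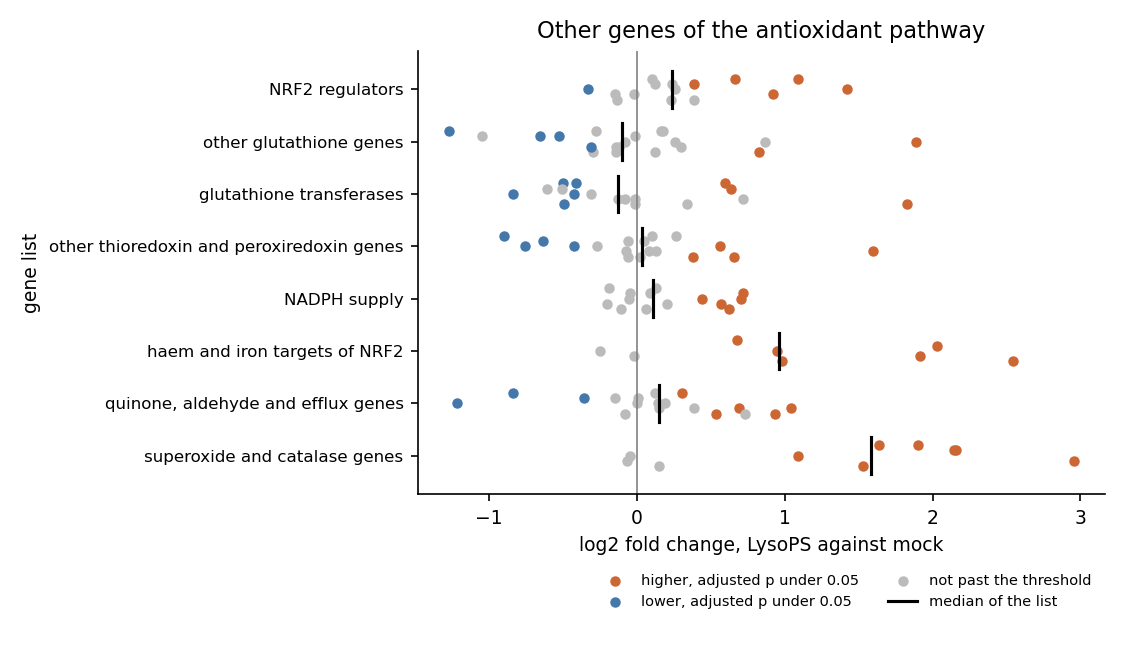
Log2 fold change, LysoPS against mock, of every tested gene of 8 lists of related genes, colored by whether it was called higher (orange), lower (blue) or neither (grey), with the list's median as a black bar; the height of a point within its row has no meaning. The medians of the haem and iron list (0.96) and of the superoxide list (1.58) lie farthest to the right, and those of the glutathione genes (-0.10) and transferases (-0.13) lie left of zero.

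Of 20 other glutathione genes 2 rose, 4 fell and 14 did not pass, with a median of -0.10. Among all genes tested, 12.8% were higher and 12.6% lower. Glutaredoxin Glrx, which uses glutathione to reduce protein thiols, rose from 28.3 and 17.8 CPM to 96.5 and 73.7 CPM (log2 fold change 1.89, adjusted p = 0.00766). The gamma-glutamyltransferase Ggt5 (-1.27) and the 5-oxoprolinase Oplah (-0.66) fell, as did the mitochondrial Glrx2 (-0.53), whose call was lost without mock replicate 1 or mock replicate 2. The implied transcript lengths of Ggt5, Oplah and Glrx2 varied between libraries by 1.24, 1.34 and 1.59 times, and Glrx2 did not pass in TPM (adjusted p = 0.398). Of 17 glutathione transferases 3 rose and 5 fell (median -0.13). The omega-class Gsto1 (0.64) and the microsomal Mgst1 (0.59) rose, and Gstm2 (-0.49) and Gsta4 (-0.42) fell. Calls on these lists were fewer with 1 mock library: without mock replicate 1 they were 3 glutathione genes and 2 transferases, and without mock replicate 2 there was 1 transferase. Gstm2 and Gsta4 lost their calls without mock replicate 1 or mock replicate 2, and Mgst1 without mock replicate 2.

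On the thioredoxin side, 4 of 18 further genes rose and 4 fell (median 0.03), beside 12.8% and 12.6% of all genes tested. Txn1, the thioredoxin that TXNRD1 reduces, went from 212 and 198 CPM to 341 and 306 CPM (log2 fold change 0.66, adjusted p = 0.00597). The TPM ratio of Txnrd1 to Txn1 was 0.278 and 0.295 in mock and 0.348 and 0.389 after LysoPS. Its inhibitor Txnip fell from 225 and 212 CPM to 110 and 124 CPM (log2 fold change -0.90, adjusted p = 0.00287). The peroxiredoxins split: Prdx5 rose from 92.2 and 78.1 CPM to 285 and 229 CPM (1.59), Prdx6 fell from 623 and 597 CPM to 372 and 350 CPM (-0.76), and Prdx2, Prdx3 and Prdx4 did not pass. Sesn1, a sestrin, fell as well (-0.64). Without mock replicate 2 the list had 5 calls.

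The called genes of NADPH supply and iron handling were rises. Of 14 NADPH genes 5 rose (median log2 fold change 0.11), where 12.8% of all genes tested were called higher and 12.6% lower. The 5 included the NAD kinase Nadk (0.71) and the pentose phosphate enzymes G6pdx (0.57), Pgd (0.62) and Taldo1 (0.70). Without mock replicate 2 the count was 3, and G6pdx missed the threshold (adjusted p = 0.0545). Of 8 haem and iron targets 6 rose (median 0.96). The haem oxygenase Hmox1 had the largest log2 fold change (2.54), followed by ferritin heavy chain Fth1 (2.03). The biliverdin reductase Blvrb (1.91), Blvra, the haem transporter Slc48a1 (0.95) and Ftl1 rose too. Fech, whose enzyme inserts the iron when haem is made, lay just outside the threshold. It stood at 92.9 and 94.3 CPM in mock and 78.7 and 78.6 CPM after LysoPS (log2 fold change -0.25, adjusted p = 0.0500045 by edgeR). In 6 of the 12 alternatives 1 gene of the haem and iron list was called lower, and in TPM 1 NADPH gene was. Of 18 tested quinone, aldehyde and efflux genes 5 rose and 3 fell (median 0.15), with the exporters Abcc3 (0.93) and Abcc4 (0.69) and the aldo-keto reductase Akr1b8 (1.04) higher and the aldehyde oxidase Aox1 (-0.84) lower. That list had 4 calls without mock replicate 1 and 3 without mock replicate 2, where Abcc4 missed the threshold (adjusted p = 0.0522). Of 10 superoxide and catalase genes 7 rose (median 1.58). Among them were the mitochondrial Sod2 (2.15) and the phagocyte NADPH oxidase genes Cybb (2.16), Ncf4 (2.95) and Ncf1 (1.64), while Sod1, Ccs and Cat did not pass.

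Markers of several cell types moved in the same libraries, in which 12.8% of all genes tested were called higher and 12.6% lower. The microglia and macrophage list, 19 gene models for 18 markers, had a median log2 fold change of 0.54, with Lyz2 at 1.80. Cx3cr1, the fractalkine receptor of microglia, differed more between replicates than between groups, at 132 and 13.4 CPM in mock and 176 and 19.5 CPM after LysoPS. Astrocyte markers fell, with Gfap at -1.06, as given beside Nqo1. Of 10 fibroblast and pericyte markers 3 were lower (summed level 15049 to 15172 CPM in mock, 12572 to 12886 CPM after LysoPS), with Fn1 at -0.59. Of 5 tested endothelial markers 2 were lower, among them Cdh5 (-0.92), while the defining marker Cldn5 had 2 counts in mock replicate 1 and none in the other libraries. Oligodendrocyte lineage markers (4 of 9 higher, 1 lower, Cnp at -0.58) summed to 365 to 380 CPM in mock and 363 to 380 CPM after LysoPS. Neuron markers (1 of 7 higher) summed to 635 to 728 CPM and 571 to 788 CPM, and Map2 did not pass. The part of these shifts in the values of the 10 genes was not tested.

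The average profile of the 10 members, 0.47 and 0.53 above the mock mean on the log2 CPM scale in the 2 LysoPS libraries, lay between those of the genes that rose and those that did not. Over the 4 libraries, the genes closest to it among 12617 genes of at least 5 CPM were Tbc1d23, Atp6ap2, Jak2, Gm20559 and Ltbp1, at Euclidean distances of 0.021 to 0.029.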

How the data were processed

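Messenger RNA of 4 libraries (2 mock, 2 LysoPS) was selected with poly-T beads and sequenced, per the labels' protocols. HISAT2, StringTie, Trimmomatic 0.36 and FastQC 0.11.2 are named, with build GRCm38, per the submitters' processing notes. Which program counted reads, with what strand setting and which annotation release, is not given in the sources used here. The deposited counts are whole numbers without normalization. The deposited TPM and FPKM values were normalized by the authors, per the file headers; FPKM was used only for the transcript length that it and the counts imply. Gene coordinates equalled those of GENCODE M21 for all 10 members.

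The test was that of edgeR 4.0.16 (R 4.3.3): counts passed filterByExpr (minimum count 10), were scaled by TMM (factors 0.966 to 1.04) and entered a two-sided quasi-likelihood F test with 2 residual degrees of freedom. SE was the log2 fold change divided by the square root of F. The filter kept all 10 members. Counts of 30001098 to 45193959 per library make sampling error small for these genes, so the number of libraries limits the precision. Near-identical copies were sought with blastn 2.17.0 (at least 300 bases at 90% identity). The fit was tested on simulated data.

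The members and lists were chosen with earlier results of these data known. Named were all members, Keap1, Bach1, Sqstm1, Slc3a2, Txn1 and Txnip, up to 4 called genes of each pathway list with the smallest p (1 CPM or more where higher) and the most abundant marker of each cell type. Btrc, Fech, Cx3cr1, Blvra, Ftl1, Sod1, Ccs, Cat, Prdx2, Prdx3, Prdx4, Cldn5, Tuba1b and Gm17494 were named after their values were seen. One gene is not reported here. Alternatives were DESeq2 1.42.0 and its size factors, no filter, a stricter filter (5 CPM in 2 libraries), limma-voom (limma 3.58.1), robust dispersion, the replicate number as a block, leaving out each library, and, for the levels, counts per kb of mean implied length. Chosen after seeing the data was limma on log2(TPM + 1).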

Additional observations from a re-analysis of the deposited data

How the results depend on the processing

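The 6 called members kept their direction and their call under all 12 alternatives, with log2 fold changes from 1.5 to 1.73 for Abcc1, 1.23 to 1.45 for Gsr, 1.07 to 1.32 for Prdx1, 0.84 to 1.01 for Txnrd1, 0.59 to 0.83 for Srxn1 and -0.95 to -0.75 for Nqo1. The number of genes called over the whole table was 4854 and ranged from 2165 to 5356 when 1 library was left out (2223 without mock replicate 1, 2165 without mock replicate 2), a fit with fewer samples. Members called ranged from 6 to 7. In limma on log2(TPM + 1) 1353 genes were higher and 3088 lower, against 2447 and 2407 on counts, and the median of all genes moved from -0.01 to -0.14, so each fold change in TPM sits lower by about that shift. The cause was not tested. With 1 library left out, Nfe2l2 ran from -0.069 (without LysoPS replicate 2) to 0.0042 (without LysoPS replicate 1), Gclm from -0.016 to 0.33, Keap1 from -0.064 to 0.017 (0.0065 without mock replicate 2) and Map2 from -1.21 (adjusted p = 0.0205, without LysoPS replicate 2) to 0.091, so the direction of each turned; that of Slc3a2 turned to -0.0045 in TPM. With the replicate number as a block 5433 genes and 7 members were called, the seventh being Slc7a11 (-0.32, adjusted p = 0.0194); it ended no call of a named gene. Whether equal numbers mark a shared culture was not stated, and the correlation of same-numbered libraries' deviations from the group means was 0.0775 across genes, although Cx3cr1 was far lower in replicate 2 of both groups. With counts per kb of mean implied length, the LysoPS levels moved to 77.2 for Nqo1 and 153.7 for Srxn1. With 2 libraries a group, a spread between cultures larger than that seen here cannot be assessed.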
